A study of Mus musculus with 35 samples.

Results

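The IL-6 family of cytokines and the acute-phase genes were followed in mouse embryonic fibroblasts (MEFs) through 9 genes: the cytokines Il6, Il11 and Lif, the receptor subunits Il6st and Osmr, the transcription factor gene Stat3, its feedback inhibitor Socs3, and the acute-phase genes Saa3 and Lcn2. These are 9 of the 24421 genes counted in each library, taken by symbol, and all 9 passed the filter on low counts in both sets of libraries. The list was drawn up with results of these data in view, and Il11 and Saa3 were selected on their CPM in the stable clones, which differed between clone groups. Values of Il11 and Saa3 in the clones are therefore given as a description without a test.

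All libraries derived from immortalized MEFs labelled Nelfb flox/-, that is with a null and a floxed allele of Nelfb, the gene of a subunit of the negative elongation factor NELF. The study asked whether forms of NELFB that cannot bind other NELF subunits could still take over from endogenous NELFB. In the cell populations, the cells carried an empty lentiviral vector (EV) or flag-tagged mouse NELFB as wild type (WT), as MT194 (alanine substitutions that abolish binding of NELFA and NELFC), as MT486 (substitutions that abolish binding of NELFE) or as DMT (both mutations). Each population was harvested 7 days after an adenovirus that carried Cre (Ad-Cre, which also carried GFP in the labels) or GFP alone (Ad-GFP), with 2 replicates in each of the 10 groups. Cre deletes the floxed allele. The other 15 libraries came from stable clones isolated after Ad-Cre, which by the study's methods had lost the floxed allele (Nelfb -/-) and kept the ectopic gene, 3 clones each of WT, MT194 and MT486 from pLenti vectors, and of WT(N48) and Δ-C60 from pBabe vectors, where Δ-C60 lacks the carboxyl terminus of NELFB. The 20 population libraries held 17969149 to 29080007 reads on genes, and the 15 clone libraries 18413284 to 27816723.

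Cytokines of the IL-6 family bind receptor complexes that share the subunit encoded by Il6st. The receptors activate Janus kinases and STAT3, which switches on target genes that include its own inhibitor Socs3 and, in the liver and in inflamed stroma, acute-phase genes. Fibroblasts are known sources of IL-6 and LIF, and the genes of both cytokines are induced by inflammatory and stress signals through AP-1, C/EBP and NF-kappaB factors.

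The fibroblast label was checked against marker genes: 9 of 10 fibroblast markers had a median of at least 1 CPM (counts scaled to the TMM-normalized library size) in the populations and in the clones, all but Thy1, and Fn1 was the most abundant. The leukocyte list summed to 191 to 448 CPM in the populations and 15.6 to 121 CPM in the clones. Cd14, a receptor for bacterial lipopolysaccharide, was its most abundant gene, with a median of 352 CPM in the populations and 38.6 in the clones, whereas Ptprc, Adgre1, Itgam and Tyrobp had medians under 1 CPM, and Tyrobp had no read in any population. No epithelial or endothelial marker reached a median of 1 CPM.

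Nelfb itself, the deleted gene, was checked first. In EV it fell from 46.1 and 39.5 CPM after Ad-GFP to 7.97 and 5.46 CPM after Ad-Cre. Its log2 fold change was −2.67 (standard error, SE, 0.22), with an adjusted p of 2.53e-05 in edgeR's quasi-likelihood test. In the WT population it was 97.5 and 82.8 CPM after Ad-GFP and 75.9 and 60.5 CPM after Ad-Cre. In DMT it rose from 73.5 and 61.6 CPM to 169 and 208 CPM (log2 fold change 1.48, SE 0.20, adjusted p = 0.000555, edgeR), and in MT194 and MT486 it was at 62.1 to 92.9 CPM after Ad-GFP and 104 to 128 CPM after Ad-Cre, without a call. These counts pool the endogenous gene and the ectopic one. Among the clones, Nelfb was at 10.3, 109 and 15.5 CPM in the libraries labelled WT clones 1, 2 and 3, and at 56.3 CPM or more in the other 12. WT clones 1 and 3 thus went against their label, and the comparisons of members with WT clones were repeated without them. MT486 clones 1 and 2 were closer to each other than any other replicate pair (chi-square per degree of freedom 5.06, against 32.4 to 349 for the rest), though above sampling noise, and were kept as separate samples.

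Promoter sequences are shown for Il6 and Lif, which changed together in the populations, and for Saa3, the most abundant of the 9 genes there. Each is the window of 250 bases upstream of the RefSeq start site in GRCm38.p6, which is mm10, written 5′ to 3′ along the gene. Capitals mark matches to AP-1 (TGANTCA), C/EBP (TTNNGCAA), NF-kappaB (its usual consensus) or STAT (TTCNNNGAA), searched on both strands. The windows are Il6 at chr5:30012864-30013113 (+), Lif at chr11:4257318-4257567 (+) and Saa3 at chr7:46715677-46715926 (−).
Il6: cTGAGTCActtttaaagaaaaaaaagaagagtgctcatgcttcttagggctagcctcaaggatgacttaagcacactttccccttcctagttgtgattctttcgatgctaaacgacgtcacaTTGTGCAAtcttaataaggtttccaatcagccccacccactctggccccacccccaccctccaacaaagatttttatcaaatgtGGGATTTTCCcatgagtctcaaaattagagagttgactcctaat
Lif: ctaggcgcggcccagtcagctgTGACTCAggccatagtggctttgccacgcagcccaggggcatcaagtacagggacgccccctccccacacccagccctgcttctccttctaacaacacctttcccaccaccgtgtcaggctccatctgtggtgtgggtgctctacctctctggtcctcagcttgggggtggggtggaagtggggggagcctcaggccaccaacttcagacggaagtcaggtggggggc
Saa3: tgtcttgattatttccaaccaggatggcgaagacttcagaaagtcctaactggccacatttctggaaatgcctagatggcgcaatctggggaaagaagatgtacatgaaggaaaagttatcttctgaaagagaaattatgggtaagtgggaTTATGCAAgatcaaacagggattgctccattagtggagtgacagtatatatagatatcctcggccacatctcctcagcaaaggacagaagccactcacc
The Il6 window held an AP-1, a C/EBP and an NF-kappaB match, with first bases 249, 128 and 44 bases before the start site. In the Lif window an AP-1 match began 228 bases before the start site, and in the Saa3 window a C/EBP match began 99 bases before it. Among the other members, Il11 held an AP-1 match 98 bases before the start site of its window at chr7:4778142-4778391. Its window at chr7:4782858-4783107 held no match to these motifs. Lcn2 held a C/EBP match 216 bases before the start. Of all 32851 promoter windows of this length, 6.75% held the AP-1 letters, 9.56% those of C/EBP, 3.9% those of NF-kappaB and 7.02% those of STAT. The STAT letters were found in the window of Socs3 among the 9 genes. A match describes the letters of the window and is no evidence of binding.

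Levels of different genes are compared here per length, as CPM per kilobase of exon. In the populations the medians over 20 libraries were 1740 for Saa3, 584 for Lcn2, 164 for Il6st, 118 for Socs3, 47.2 for Stat3, 43.2 for Osmr, 22.6 for Il6, 7.17 for Lif and 0.277 for Il11. Saa3 encodes a serum amyloid A protein and Lcn2 an iron-scavenging lipocalin. The ranges of neighbours in this order overlapped (for Stat3 and Osmr 33.2 to 59.9 and 29.3 to 78.5), except those of Socs3 and Stat3 (84.9 to 164 against 33.2 to 59.9) and of Lif and Il11 (3.04 to 20.3 against 0.121 to 0.648). In the clones the order was Il6st, Socs3, Lcn2, Stat3, Lif, Osmr, Il6, Saa3 and Il11, with medians of 50.3, 37.6, 36.5, 25.1, 15.4, 15.2, 5.59, 5.21 and 0.999. Saa3 spanned 0.0154 to 127 CPM per kilobase over the 15 clones and Lcn2 0.0376 to 198. The 2 sets were normalized separately, so levels were not tested between them.

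**Figure D1:**
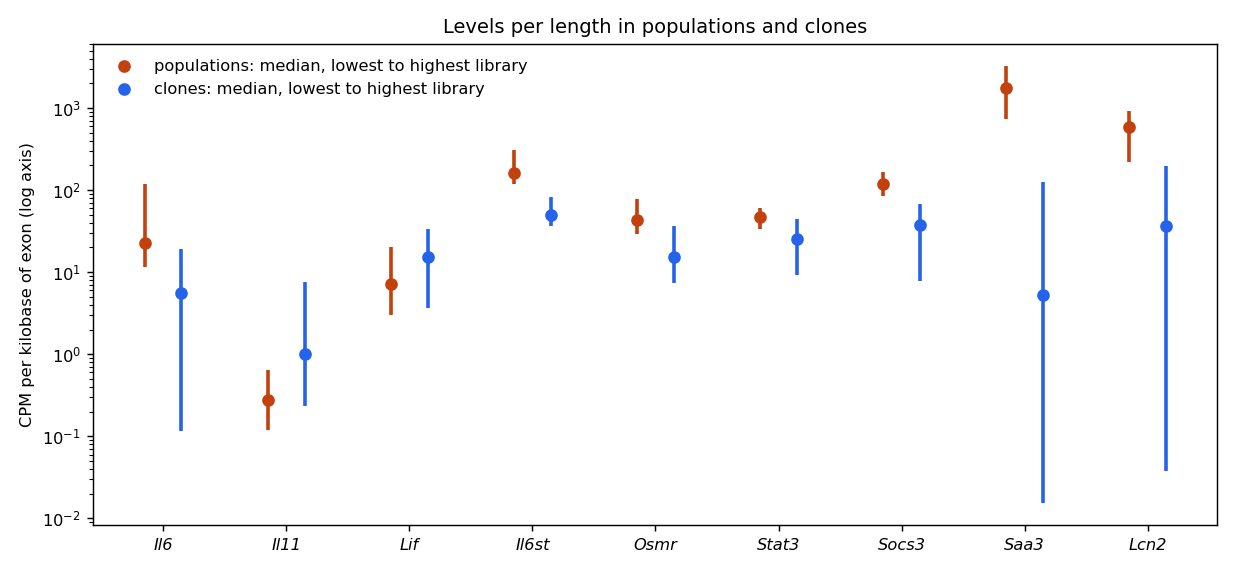
Levels of the 9 genes in CPM per kilobase of exon (vertical axis, log scale); points are medians and lines run from the lowest to the highest of 20 population libraries (orange) or 15 clone libraries (blue). Saa3 and Lcn2 had the highest medians in the populations (1740 and 584) and the widest spread in the clones.

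The first comparison asked what happened to the 9 genes within 7 days of Ad-Cre in cells without ectopic NELFB. Il6 rose 4.5-fold and Lif 2.78-fold in EV, and no other member was called. That is 2 of 9 members called (adjusted p below 0.05 with a log2 fold change beyond 1 either way), where 6.52% of the 13805 genes tested were called. Both genes encode secreted cytokines that signal through the Il6st subunit. In bulk RNA, a rise in level per cell and a rise in the share of producing cells cannot be told apart.

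Il6 (chromosome 5, 30013114 to 30019981 in mm10, forward strand) was at 51.7 and 51.7 CPM in EV after Ad-GFP and at 180 and 285 CPM after Ad-Cre. The 2 groups did not overlap, and replicate 2 after Ad-Cre held the highest value of the 20 populations. The log2 fold change was 2.17 (SE 0.31, adjusted p = 0.000652, edgeR), and the ratio was 3.49 in replicate 1 and 5.51 in replicate 2. This call held with each of the 4 EV libraries left out (adjusted p 0.00149 to 0.0117).

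Lif (chromosome 11, 4257557 to 4272514, forward strand), whose product is a differentiation-inhibiting cytokine, was at 29.9 and 26.8 CPM in EV after Ad-GFP and at 69.6 and 88.4 CPM after Ad-Cre. Again the groups lay apart, with ratios of 2.32 and 3.3 in the 2 replicates. On the log2 scale Lif changed by 1.48 (SE 0.27, adjusted p = 0.00314, edgeR), with 0.00843 to 0.0387 when each EV library was left out.

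Il11 (chromosome 7, 4772373 to 4782859, reverse strand), a profibrotic member of the family, was scarcely detected in any population, with 6 to 28 reads per library. In EV it was at 0.393 and 0.975 CPM after Ad-GFP and at 0.811 and 0.753 CPM after Ad-Cre, and these groups overlapped. At this depth its log2 fold change of 0.19 had a 95% interval of −0.79 to 1.17.

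**Figure D2:**
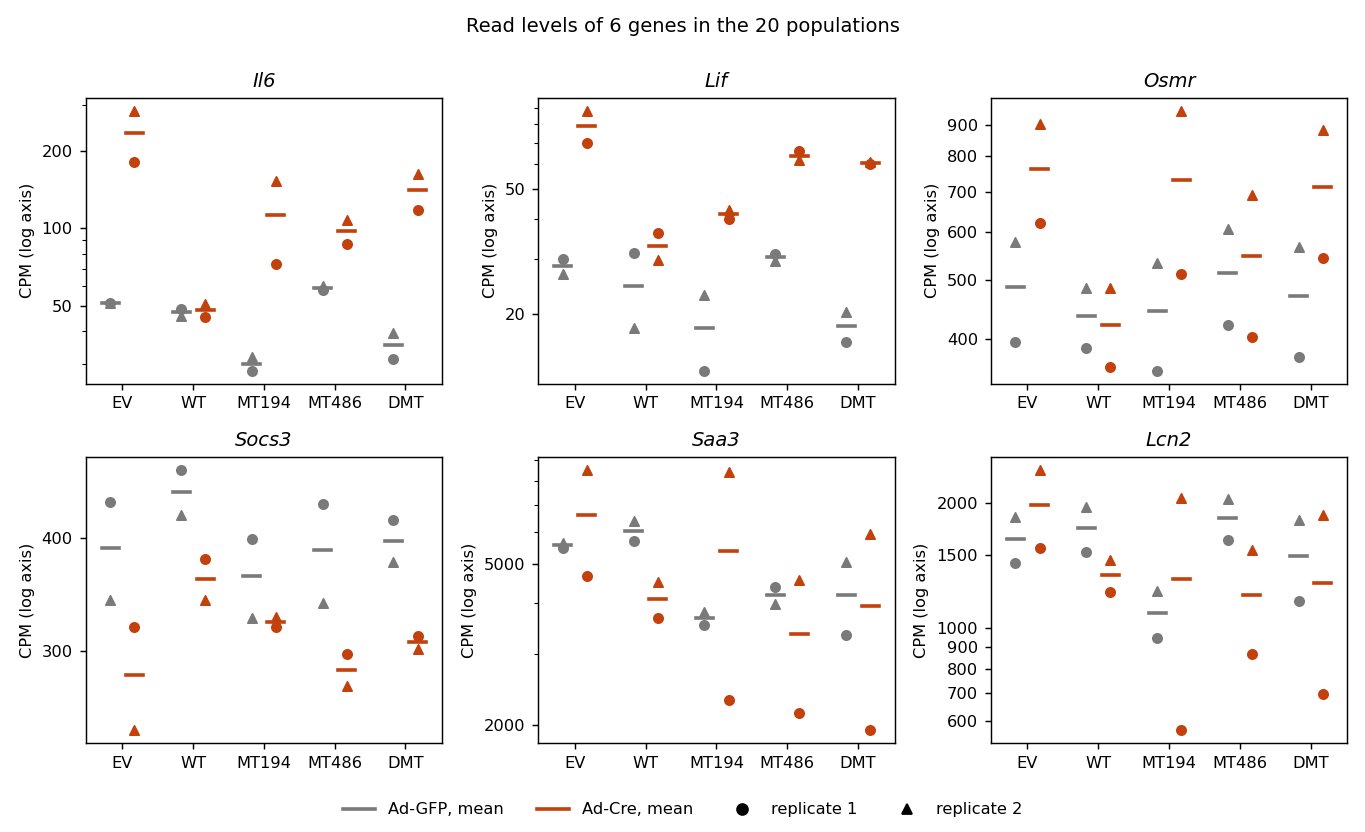
CPM (vertical axis, log scale) of Il6, Lif, Osmr, Socs3, Saa3 and Lcn2 in the 5 constructs after Ad-GFP (gray) and Ad-Cre (orange); circles are replicate 1, triangles replicate 2 and bars the mean of 2. Il6 and Lif lie apart between treatments in EV, MT194, MT486 and DMT, whereas Il6 lies between 45.7 and 51.1 CPM in the 4 WT libraries.

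Il6 and Lif were next followed in the cells with ectopic NELFB. In the WT population Il6 was at 49.0 and 46.0 CPM after Ad-GFP and at 45.7 and 51.1 CPM after Ad-Cre, and these values overlapped. Its log2 fold change was 0.03 with a 95% interval of −0.55 to 0.61, so a rise as large as the 2.17 in EV lay outside that interval. For Lif in WT the values were 31.3 and 18 CPM after Ad-GFP and 36.1 and 29.6 CPM after Ad-Cre, also with overlap. The log2 fold change of Lif was 0.42 (95% interval −0.10 to 0.93). None of the 9 members was called in WT, where 0.0217% of all genes were called. None had an unadjusted p under 0.05 in edgeR, where 859 of the 13805 genes did. None was called by DESeq2 or with the replicate block (0.869% of all genes called).

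In MT194, Il6 and Lif rose after Ad-Cre. Il6 was at 28.2 and 31.8 CPM after Ad-GFP and at 72.6 and 152 CPM after Ad-Cre, and Lif at 13.2 and 23.0 CPM and then 39.9 and 42.9 CPM. Both rose without overlap, with log2 fold changes of 1.91 (SE 0.31, adjusted p = 0.0036) for Il6 and 1.19 (SE 0.27, adjusted p = 0.0224) for Lif in edgeR. These were 2 of 9 members called, where 2.48% of all genes were called. The Il6 call was lost without MT194-GFP replicate 1 (adjusted p = 0.0549), and that of Lif without MT194-Cre replicate 1 (0.0727), MT194-Cre replicate 2 (0.0916) or MT194-GFP replicate 1 (0.199). Both were lost in the fit of the compared groups alone (0.169 and 0.285).

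In DMT, Il6 was at 31.3 and 39.6 CPM after Ad-GFP and at 118 and 163 CPM after Ad-Cre. Lif was at 16.3 and 20.3 CPM after Ad-GFP and at 60.1 and 60.7 CPM after Ad-Cre. Neither gene's groups overlapped, and the log2 fold changes were 1.99 (SE 0.31, adjusted p = 0.00135) and 1.72 (SE 0.27, adjusted p = 0.0015) in edgeR. Il6 and Lif were 2 of 9 members called, where 5.31% of all genes were called, and both calls held with each of the 4 DMT libraries left out. With the replicate block the same 2 members were called in EV, MT194 and DMT, where 9.74%, 5.39% and 8.8% of all genes were.

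MT486 lay in between for Il6, with 58.1 and 60.1 CPM after Ad-GFP and 87.4 and 108 CPM after Ad-Cre. Lif was at 31.1 and 29.6 CPM after Ad-GFP and at 65.6 and 61.6 CPM after Ad-Cre. The groups did not overlap for either gene, but no member of 9 was called, where 1.46% of all genes were called. At an unadjusted p under 0.05 in edgeR, 3 members and 2002 of the 13805 genes passed, and DESeq2 called Lif. The log2 fold change was 0.72 (SE 0.30, adjusted p = 0.263) for Il6 and 1.07 (SE 0.26, adjusted p = 0.052) for Lif in edgeR. With the replicate number as a block, Lif was called (adjusted p = 0.0131), where 4.24% of all genes were.

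Among the receptor genes, Osmr, which encodes the subunit for oncostatin M, had a larger log2 fold change after Ad-Cre in EV than Il6st. The values were 0.65 and 0.32, and neither was called. In EV, Osmr (chromosome 15, 6813577 to 6874969, reverse strand) was at 396 and 577 CPM after Ad-GFP and at 622 and 905 CPM after Ad-Cre, so that both Ad-Cre values exceeded both Ad-GFP values. The ratio was 1.57 in each replicate, and the log2 fold change of 0.65 (SE 0.41) had an adjusted p of 0.348 in edgeR. With the replicate number as a block the adjusted p was 0.000265, although 43% of all genes passed 0.05 in that fit and the change was under the log2 threshold of 1. Blocked adjusted p-values for Osmr were 0.000336 in MT194 and 0.000678 in DMT, with ratios of 1.44 to 1.78, and 0.817 in WT and 0.735 in MT486, with ratios of 0.930 to 1.14. In these blocked fits 26.7%, 40.7%, 5.61% and 23.2% of all genes passed 0.05.

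Il6st (chromosome 13, 112464070 to 112510086, forward strand), the shared signal-transducing subunit, was at 1630 and 2178 CPM in EV after Ad-GFP and at 1788 and 2962 CPM after Ad-Cre. The groups overlapped, and over the 5 constructs its log2 fold changes ran from −0.05 to 0.37 with no call. Replicate 2 exceeded replicate 1 in 10 of 10 groups for Il6st, with a median ratio of 1.35. The same held for Osmr (median ratio 1.48) and Lcn2 (1.42). Replicate 2 was the higher in 9 of 10 groups for Il6 (1.18) and Saa3 (1.37), 6 for Il11 (1.03) and 5 for Lif (0.981). For Socs3 (0.895) it was the higher in 1 of 10 groups and for Stat3 (0.913) in 0.

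Stat3 encodes the transcription factor of the pathway and Socs3 the inhibitor it induces. Stat3 (chromosome 11, 100885098 to 100939540, reverse strand) was at 511 and 460 CPM in EV after Ad-GFP and at 405 and 316 CPM after Ad-Cre. Socs3 (chromosome 11, 117966079 to 117970047, reverse strand) was at 439 and 342 CPM and then at 319 and 245 CPM. Both genes had lower values after Ad-Cre without overlap, and the log2 fold changes were −0.43 (SE 0.18, adjusted p = 0.139) and −0.47 (SE 0.20, adjusted p = 0.148) in edgeR. Neither was called. With 2 libraries per group an unchanged gene can lie apart too. The share of all genes without overlap, or with ratios to 1 side in all pairs, was not counted. The blocked adjusted p-values were 0.000889 for Stat3 and 0.00162 for Socs3, with changes under the log2 threshold. The Ad-Cre to Ad-GFP ratio of Stat3 was under 1 in 10 of 10 replicate pairs, WT included (0.849 and 0.805), and lay between 0.686 and 0.878. That of Socs3 was under 1 in 9 of 10 pairs, again with WT (0.798 and 0.806), and was 1.003 in MT194 replicate 2, where the Il6 ratio was 4.79. Exons of Stat3 overlap Stat5a on the opposite strand, and the strand setting of the counting is not given in the sources used here.

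Saa3 (chromosome 7, 46711998 to 46715700, reverse strand) carried 47878 to 180824 reads per population library, yet its Ad-Cre to Ad-GFP ratio differed in direction between replicates. In EV it was at 5485 and 5640 CPM after Ad-GFP and at 4665 and 8514 CPM after Ad-Cre. The Ad-Cre values lay on either side of the Ad-GFP values. In replicate 1 the Ad-Cre to Ad-GFP ratio was 0.489 to 0.851 in 5 of 5 constructs, and in replicate 2 it was over 1 in 4 of 5, up to 2.22 in MT194, with 0.706 in WT. In EV the log2 fold change was 0.24 with a 95% interval of −0.94 to 1.43. Saa1, Saa2 and Saa4, its relatives on chromosome 7, had at most 81 reads in any population, and the split of reads between near-identical copies of this family is uncertain.

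Lcn2 (chromosome 2, 32384633 to 32388252, reverse strand) was at 1433 and 1843 CPM in EV after Ad-GFP and at 1553 and 2390 CPM after Ad-Cre, with overlap. Its lowest value over the 20 populations was 569 CPM in MT194-Cre replicate 1, against 2053 CPM in replicate 2 of that group. Log2 fold changes over the 5 constructs ran from −0.61 to 0.27 with SE 0.56, and none was called.

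**Figure D3:**
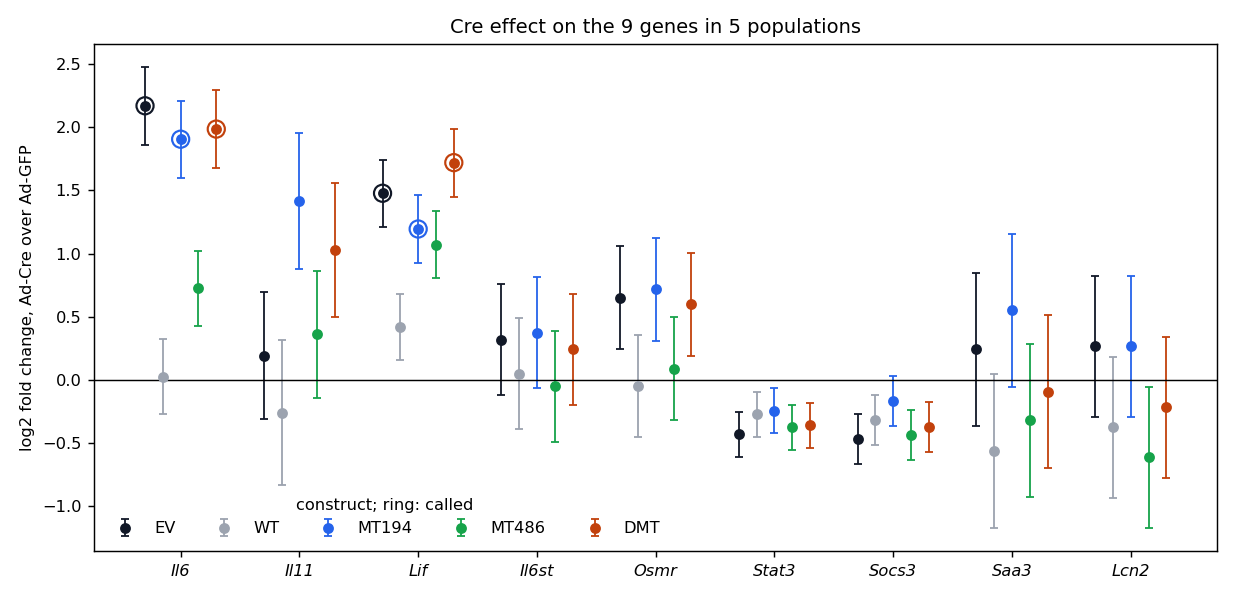
Log2 fold change of Ad-Cre over Ad-GFP (vertical axis) for the 9 genes in 5 constructs; points are edgeR estimates from 2 replicates per group, bars are 1 SE and rings mark calls. The ringed points are Il6 and Lif in EV, MT194 and DMT, and the Il6 point of WT lies at 0.03.

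After Ad-Cre, the constructs were next set against EV-Cre directly, which all 4 comparisons share as control. In WT-Cre, Il6 was lower by 4.81-fold and Lif by 2.4-fold, and these 2 of 9 members were called at an absolute log2 fold change over 0.5, where 7.37% of all genes were called. The log2 fold change was −2.27 (SE 0.31, adjusted p = 0.00131) for Il6 and −1.26 (SE 0.26, adjusted p = 0.0125) for Lif in edgeR. The Il6 call held with each of the 4 libraries left out, while that of Lif was lost without EV-Cre replicate 2 (adjusted p = 0.117), WT-Cre replicate 1 (0.0676) or WT-Cre replicate 2 (0.128). Blocking by replicate added Osmr, at −0.84 on the log2 scale (adjusted p = 3.44e-05), where 23% of all genes were called.

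For the mutants the same comparison gave smaller differences in Il6 and Lif, though not in every member. Lcn2 differed by −0.59, −0.71 and −0.62 in MT194-Cre, MT486-Cre and DMT-Cre and by −0.56 in WT-Cre, without a call. Il6 in MT194-Cre was lower than in EV-Cre by 1.05 on the log2 scale in edgeR (SE 0.30, adjusted p = 0.203) and in MT486-Cre by 1.25 (SE 0.30, adjusted p = 0.0862). No member of 9 was called in MT194-Cre, MT486-Cre or DMT-Cre by edgeR, where 0.225%, 0.362% and 0.00724% of all genes were called. Unadjusted p-values under 0.05 were found for 2, 1 and 1 members, and for 1326, 1676 and 447 of the 13805 genes. DESeq2 called Il6 and Lif in MT194-Cre, Il6 in MT486-Cre and no member in DMT-Cre. With the replicate block, Il6 was called in MT194-Cre (adjusted p = 0.01) and MT486-Cre (0.00448), Lif in MT194-Cre (0.0355) and Osmr in MT486-Cre (0.00805). Called shares of all genes in those blocked fits were 6.22% and 8.95%, and no member was called in DMT-Cre, with 0.348%. In DMT-Cre, Il6 differed by −0.73 (95% interval −1.30 to −0.15, adjusted p = 1, edgeR).

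Whether the Cre effect itself differed from that in EV was tested as an interaction. For Il6 in WT the difference of effects was −2.14 (SE 0.42, adjusted p = 0.0426, edgeR), and this was 1 of 9 members called, where 0.681% of all genes were. Leaving out any of the 4 EV or 4 WT libraries ended this call, with adjusted p-values of 0.0551 to 0.187 and differences of −2.43 to −1.78, and the fit of the compared groups alone gave 0.0796. DESeq2 gave 0.00026 and the replicate block 0.00151, and the block also called Osmr in WT (−0.71, adjusted p = 0.00782), where 17.3% of all genes were called. For Lif in WT the difference was −1.06 (SE 0.37, adjusted p = 0.258, edgeR).

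Differences from the EV effect in the mutants were smaller for Il6: −0.26 in MT194 (95% interval −1.08 to 0.55), −1.45 in MT486 (−2.27 to −0.62, adjusted p = 0.679) and −0.18 in DMT (−1.0 to 0.63), all in edgeR. No member was called in these 3 comparisons, where 0.00724% of all genes were called in each. DESeq2 called none. Only Il6 in MT486 had an unadjusted p under 0.05 in edgeR, where 715 of the 13805 genes did. The replicate block called Il6 in MT486 (adjusted p = 0.0391), where 2.96% of all genes were called, and no member in MT194 or DMT (0.992% and 0.00724%).

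Other genes of the pathway were taken from 7 lists with 82 genes beyond the 9 members, of which 66 were tested in the populations. In EV, 4 of the 66 were called higher after Ad-Cre and 2 lower, or 9.09% against 6.52% of all genes, and the median log2 fold change was −0.11 against 0.00036 for all genes. Of 12 genes that STAT3 activates, Myc and Pim1 rose, by 1.74 (SE 0.15, adjusted p = 3.27e-05) and 1.23 (SE 0.20, adjusted p = 0.00166) on the log2 scale in edgeR. Myc, a growth-promoting transcription factor, was at 57.1 and 72.1 CPM after Ad-GFP and at 204 and 228 CPM after Ad-Cre, without overlap. Both calls held with each EV library left out, and in the compared groups alone that of Pim1 was lost (adjusted p = 0.0645).

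The acute-phase list split. Of its 20 tested genes, Ptx3, a pentraxin made by fibroblasts, rose by 2.34 (SE 0.61, adjusted p = 0.0243) and Cfb, complement factor B, by 1.73 (SE 0.47, adjusted p = 0.0298), while the protease inhibitor gene Serpina3g fell by 1.30 (SE 0.32, adjusted p = 0.0195), all on the log2 scale in edgeR. Serpina3g has near-identical relatives that may share its reads. Ptx3 was at 667 and 820 CPM after Ad-GFP and at 2406 and 5132 CPM after Ad-Cre. Leaving out single libraries ended the calls of Ptx3 and Cfb in 3 of 4 cases each (adjusted p up to 0.180 and 0.216) and that of Serpina3g in 2 of 4 (up to 0.176): EV-Cre replicate 2 and EV-GFP replicate 1 for all 3 genes, and EV-GFP replicate 2 for Ptx3 and Cfb. All 3 were also lost in the compared groups alone (0.0593 to 0.142).

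Feedback inhibitors had a median log2 fold change of −0.61 in EV, and all 7 tested genes were below 0. All 7 were below 0 in WT too, with a median of −0.27. Socs2 was the gene called, at −1.69 (SE 0.32, adjusted p = 0.00393, edgeR). Its level was 15.1 and 17.4 CPM after Ad-GFP and 4.19 and 5.86 CPM after Ad-Cre, and the call was lost without EV-Cre replicate 2 (adjusted p = 0.0559). No gene of the ligand (3 tested), receptor (5), kinase and transcription factor (7) or Il6 inducer (12) lists was called in EV. With the replicate block, 13 of 66 genes were called in place of 6, where 9.74% of all genes were, and Clcf1, a ligand of the family, was among them (log2 fold change 1.12 unblocked, blocked adjusted p = 4.47e-06).

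**Figure D4:**
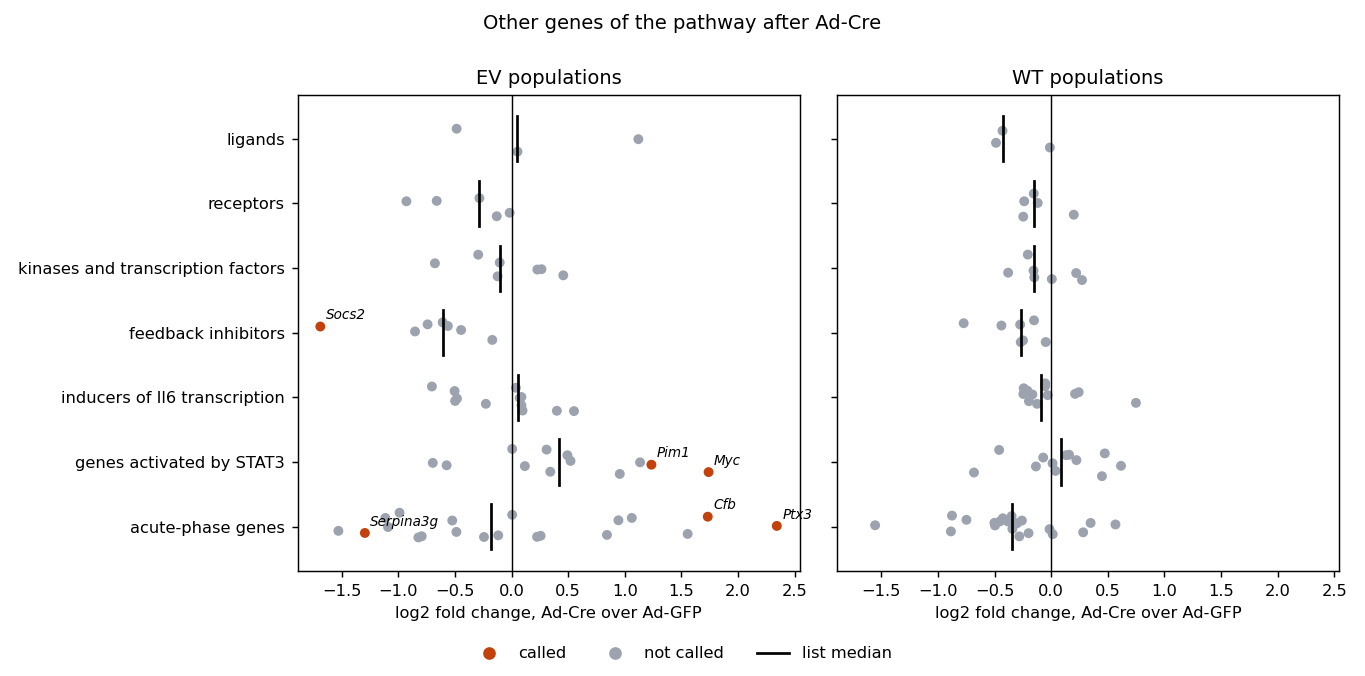
Log2 fold change of Ad-Cre over Ad-GFP (horizontal axis) for the 66 other tested genes of the pathway in 7 lists, in EV (left) and WT (right); each point is a gene, black lines are list medians and orange points are calls. In EV the 6 called genes are Socs2, Pim1, Myc, Cfb, Ptx3 and Serpina3g, and in WT none is called.

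In WT, none of the 66 genes was called, with or without the replicate block, where 0.0217% and 0.869% of all genes were. MT194 called Socs2 alone of 66, or 1.52% beside 2.48% of all genes (−1.65, SE 0.32, adjusted p = 0.0105), and MT486 called 2 of 66, or 3.03% beside 1.46%: Socs2 (−1.37, SE 0.31, adjusted p = 0.0382) and Myc (1.06, SE 0.15, adjusted p = 0.00269) in edgeR. DMT called 7 of 66, or 10.6% beside 5.31%: Myc (1.59), Pim1 (1.21), Ptx3 (2.38) and Il1rn (1.19) higher and Socs2 (−2.03), Serpina3g (−1.08) and Itih4 (−1.86) lower. Il1rn encodes the interleukin-1 receptor antagonist. The Socs2 calls in MT194 and MT486 were lost in 3 of 4 and 4 of 4 single-library omissions (adjusted p up to 0.085 and 0.22): for MT194 without MT194-Cre replicate 2 or either MT194-GFP library, for MT486 without any. In DMT, that of Serpina3g was lost without any of the 4 libraries (up to 0.26), that of Ptx3 without DMT-Cre replicate 2 or either DMT-GFP library (up to 0.195), that of Il1rn without DMT-Cre replicate 1 or either DMT-GFP library (up to 0.214), and that of Itih4 without DMT-Cre replicate 1 or DMT-GFP replicate 2 (up to 0.206). With the replicate block 3, 5 and 10 of the 66 genes were called in MT194, MT486 and DMT, where 5.39%, 4.24% and 8.8% of all genes were. In the compared groups alone, the calls of Socs2 in MT194 (0.181) and MT486 (0.205), of Myc in MT486 (0.180) and of Serpina3g, Ptx3 and Il1rn in DMT (0.0697 to 0.089) were lost.

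Set against EV-Cre, WT-Cre was lower in Myc (−1.35, SE 0.15, adjusted p = 0.00042), Bcl6 (−0.73), Vegfa (−1.67) and the ligand gene Clcf1 (−1.59), and higher in Stat5a (0.59), Relb (0.71) and Nfkb2 (0.53), which encode a STAT factor and subunits of NF-kappaB. These 7 of 66 genes, or 10.6%, were called by edgeR at an absolute log2 fold change over 0.5, beside the 7.37% for all genes, and the block called 19, where 23% of all genes were called. Of the 7 calls, that of Myc held with each of the 4 libraries left out. Those of Nfkb2, Relb and Vegfa were lost with any of the 4 left out (adjusted p up to 0.152, 0.253 and 0.308). The other 3 were lost without WT-Cre replicate 1, that of Clcf1 also without EV-Cre or WT-Cre replicate 2 (up to 0.194), that of Stat5a also without EV-Cre replicate 2 (up to 0.107) and that of Bcl6 also without EV-Cre replicate 1 or WT-Cre replicate 2 (up to 0.0927). In MT194-Cre, MT486-Cre and DMT-Cre against EV-Cre, none of the 66 was called, where 0.225%, 0.362% and 0.00724% of all genes were. With the replicate block 6, 7 and 0 of the 66 were called, where 6.22%, 8.95% and 0.348% of all genes were.

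Leukocyte markers were read beside these changes. Their summed level in EV was 355 and 448 CPM after Ad-GFP and 252 and 262 CPM after Ad-Cre, and most of it was 1 gene, Cd14, with 349 and 438 CPM and then 242 and 248 CPM, each from lowest to highest. It was 404 and 428 CPM and then 240 and 287 CPM in MT486, and 365 and 448 CPM and then 191 and 330 CPM in DMT. In MT194 the sum was 323 and 364 CPM and then 207 and 392 CPM. Replicate 2 of MT194, where the Il6 ratio was 4.79, was the 1 pair of 10 with a higher sum after Ad-Cre. In WT the sum was 394 and 431 CPM and then 355 and 411 CPM. Their part in the changes of Il6 and Lif was not tested.

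Il6, Saa3 and Lcn2 spread far more over the stable clones than over the populations. The highest value was 168 times the lowest for Il6 in the clones and 10.1 times in the populations, whereas for Il6st it was 2.29 and 2.59 times. Il6 ran from 0.281 to 47.1 CPM over the 15 clones. It was at 47.1, 13.6 and 29.3 CPM in WT, at 1.27, 16 and 0.455 CPM in WT(N48), at 0.281, 12.8 and 3.60 CPM in Δ-C60, at 13.8, 37.7 and 10.7 CPM in MT194 and at 21.9, 25.4 and 5.29 CPM in MT486. All Δ-C60 values were under all WT values, whereas Δ-C60 and WT(N48) overlapped. Between Δ-C60 and WT the log2 fold change was −2.42 (SE 1.27, adjusted p = 0.242, edgeR), and over WT(N48) it was −0.07 (95% interval −2.47 to 2.33). The latter turned positive without WT(N48) clone 2, Δ-C60 clone 1 or Δ-C60 clone 3, up to 2.72.

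Il11, described without a test because the list was drawn up on it, was at 7.83, 16 and 7.00 CPM in the WT clones and at 0.487 to 2.75 CPM in the other 12. The WT clones carried 138 to 386 reads and the others 13 to 55, and the highest value was that of WT clone 2, the library that kept Nelfb at 109 CPM. WT(N48) clones, labelled as carrying wild-type NELFB, were at 2.08, 1.45 and 0.981 CPM, within the range of the mutants. WT clones 1 and 3, at 7.83 and 7.00 CPM, were those low in Nelfb, so that WT clone 2 alone stands for the WT label here.

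Saa3, likewise described only, fell into wide ranges inside each group except Δ-C60. It was at 129, 13.6 and 153 CPM in WT, at 258, 4.65 and 24.9 CPM in MT194, at 216, 330 and 9.07 CPM in MT486 and at 0.203, 20.8 and 0.666 CPM in WT(N48). In the 3 Δ-C60 clones it was at 0.0401, 0.15 and 0.148 CPM, which is 1, 4 and 3 reads. WT(N48) clone 1 also had 4 reads, as many as Δ-C60 clone 2, and the other 11 clones had 19 or more. Groups other than Δ-C60 overlapped one another.

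**Figure D5:**
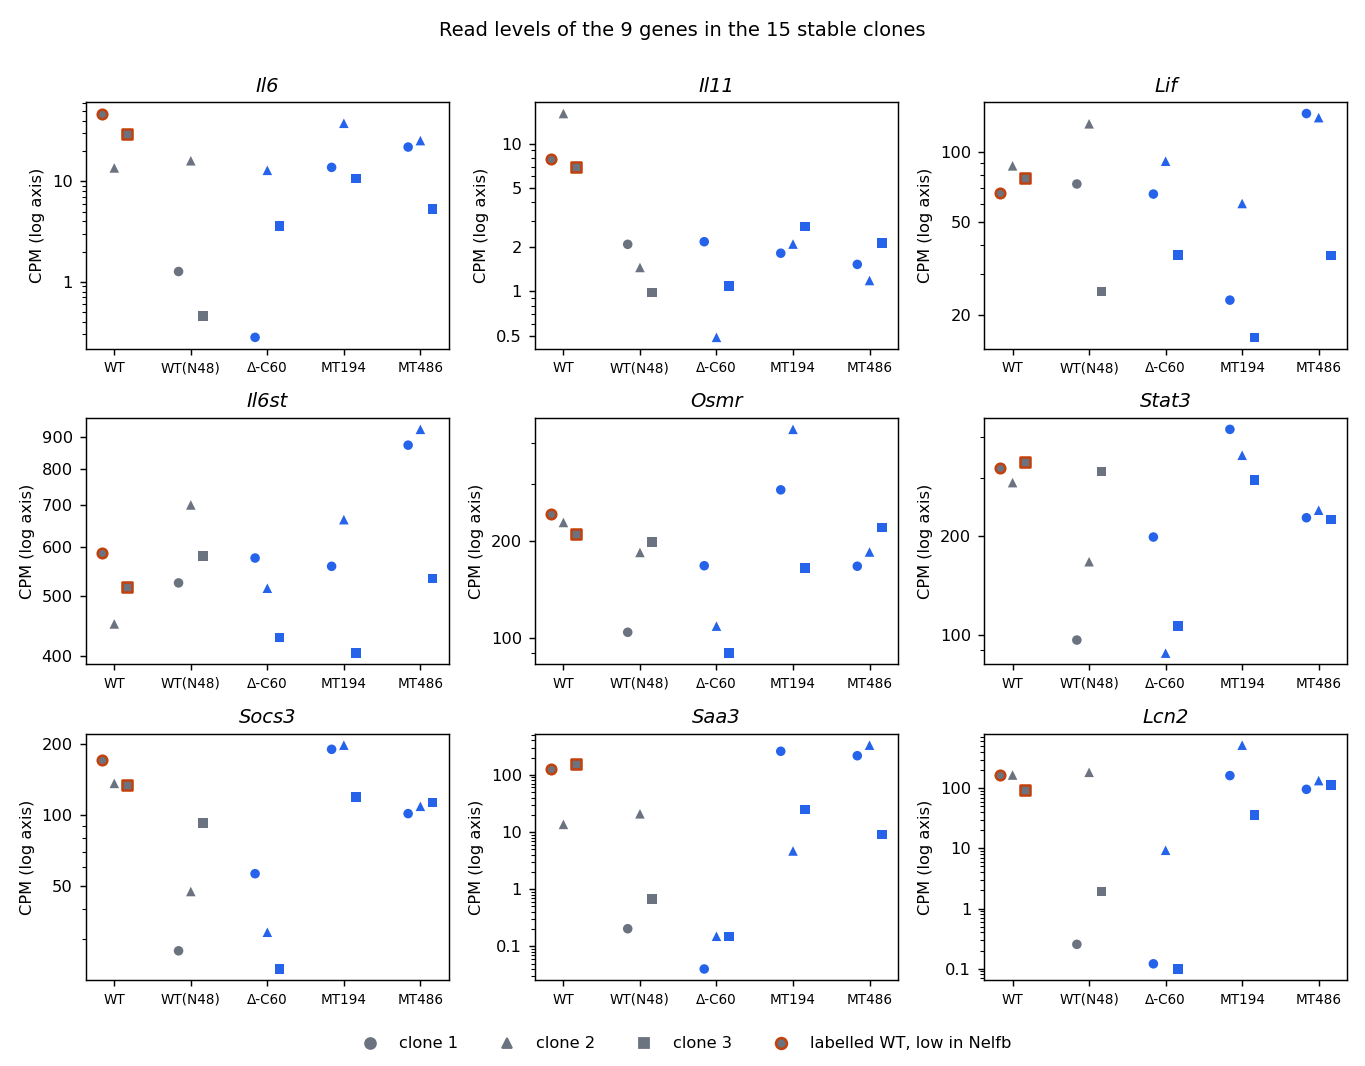
CPM (vertical axis, log scale) of the 9 genes in each of the 15 stable clones, 3 per group; symbols are clones 1 to 3, gray marks groups labelled as wild-type and blue those labelled as mutant NELFB, and orange edges mark WT clones 1 and 3, which were low in Nelfb against that label. Il11 is higher in the 3 WT clones than in the other 12, and Saa3 in the 3 Δ-C60 clones rests on 1 to 4 reads.

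Lcn2 followed Saa3 in part. It was at 165, 166 and 93.2 CPM in WT, at 162, 520 and 36.2 CPM in MT194 and at 95.8, 134 and 114 CPM in MT486. In WT(N48) it was at 0.254, 184 and 1.93 CPM, and in Δ-C60 at 0.12, 9.29 and 0.0987 CPM, where clones 1 and 3 had 3 and 2 reads. Clone 2 was the highest of its group in both. Between Δ-C60 and WT the log2 fold change was −5.45 (SE 1.99, adjusted p = 0.102, edgeR). DESeq2 gave 0.0158, and leaving out Δ-C60 clone 2 gave 0.0385. Over WT(N48) it was −4.26 (SE 1.89, adjusted p = 0.412), and 1.49 without WT(N48) clone 2.

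Socs3 and Stat3 were the members called in the clones. Socs3 was at 170, 136 and 134 CPM in WT and at 56.4, 31.9 and 22.4 CPM in Δ-C60, without overlap. Its log2 fold change was −1.99 (SE 0.41, adjusted p = 0.0174, edgeR). Stat3 was at 322, 290 and 335 CPM in WT and at 198, 88.0 and 107 CPM in Δ-C60, also without overlap, with −1.27 (SE 0.37, adjusted p = 0.049). These were 2 of 7 members tested in Δ-C60 against WT, where 5.38% of the 13223 genes tested in the clones were called. The Δ-C60 clones came from pBabe and the WT clones from pLenti vectors, so construct and vector cannot be told apart here. Socs3 was at 101 to 197 CPM over the pLenti groups WT, MT194 and MT486. Over the pBabe groups WT(N48) and Δ-C60 it was at 22.4 to 92.2 CPM.

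Neither call held without WT clones 1 and 3, the libraries low in Nelfb. The log2 fold changes were then −1.90 for Socs3 and −1.17 for Stat3, beside −1.99 and −1.27 with all clones. With 1 WT library left, that fit cannot show whether the calls rested on those clones. Leaving out WT clone 1 or 3 alone ended the call of Socs3 (0.0705 and 0.0549). The call of Stat3 was lost without any of the 3 WT clones or without Δ-C60 clone 2 or 3 (0.088 to 0.126). Both were lost in the compared groups alone (0.0557 for Socs3 and 0.0943 for Stat3). Against WT(N48), where Socs3 was at 26.7, 47.5 and 92.2 CPM and Stat3 at 96.5, 167 and 313 CPM, no member of 7 was called in Δ-C60, and 0% of all genes were called by edgeR. At an unadjusted p under 0.05, 1540 of all genes and 1 of the 7 members passed, and DESeq2 called no member.

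In MT194 clones Socs3 was at 189, 197 and 119 CPM, above all WT(N48) clones, with a log2 fold change of 1.60 (SE 0.41, adjusted p = 0.0393, edgeR). It was 1 of 7 members called against WT(N48), where 3.24% of all genes were called. MT194 clones came from pLenti and WT(N48) clones from pBabe vectors, so construct and vector cannot be told apart here either. Of the 6 single-clone omissions, that of WT(N48) clone 3 kept the call, and the others gave 0.0558 to 0.148. Against WT no member was called in MT194, MT486 or WT(N48), where 1.47%, 0% and 1.47% of all genes were called by edgeR. MT486 against WT had 1176 genes and 1 member at an unadjusted p under 0.05, and DESeq2 called Socs3 in WT(N48) against WT. Without WT(N48) clone 3, edgeR called Socs3 (adjusted p = 0.0206) and Stat3 (0.0471) in WT(N48) against WT and Stat3 in MT194 against WT(N48) (0.02). MT486 against WT(N48) called none of 7, with 0.272% of all genes called.

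Lif in the clones was at 66.9, 87.4 and 77.4 CPM in WT, at 73.0, 132 and 25.2 CPM in WT(N48), at 66.1, 91.5 and 36.2 CPM in Δ-C60, at 23.1, 60.2 and 16 CPM in MT194 and at 147, 141 and 36 CPM in MT486. The MT194 clones lay below all WT clones, with a log2 fold change of −1.22 (SE 0.65, adjusted p = 0.307, edgeR), and the other groups overlapped WT. Without WT clones 1 and 3, with 1 WT library left, no member of 7 was called against WT in any of the 4 groups. Of the 14001 genes then tested, edgeR called 3 in Δ-C60, 2 in the WT(N48) group and 1 each in MT194 and MT486. The log2 fold changes were −1.30 for Il6 and −5.70 for Lcn2 in Δ-C60 (adjusted p = 0.797 and 0.385, edgeR) and −1.41 for Lif in MT194 (0.589). For Il6 the sign turned, from −0.53 to 0.60 in MT194 and from −0.78 to 0.37 in MT486, with no call in either fit. Osmr ran from 89.7 to 441 CPM and Il6st from 404 to 925 CPM over the 15 clones, without a call.

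Of the other pathway genes, 59 were tested in the clones. Δ-C60 against WT and MT194 against WT(N48) again differ in vector as well as in construct. Against WT, 6 were called in Δ-C60, or 10.2% beside 5.38% of all genes: Pim1 higher (1.44, SE 0.35, adjusted p = 0.0285) and 5 lower in edgeR. The 5 were Lifr, the LIF receptor (−1.39), Tnfrsf1a, a receptor of tumor necrosis factor (−1.06), and the acute-phase genes Hp (−5.71), C4b (−4.07) and Steap4 (−5.26). Hp, haptoglobin, was at 27.3, 64.5 and 88.7 CPM in the WT clones and at 0.321, 0.938 and 2.13 CPM in Δ-C60, each from lowest to highest. C4b has a near-identical copy that may share its reads. None of the 6 calls held without WT clones 1 and 3, but with 1 WT library left that fit cannot show whether they rested on those clones. Against WT(N48) none of the 59 was called. Leaving out single clones ended the call of Steap4 in every case (up to 0.104), those of Lifr and Pim1 without any WT clone or Δ-C60 clone 3 (up to 0.0938 and 0.11), that of Hp without WT clone 1 or 3 (up to 0.0697), that of C4b without WT clone 1 (0.067), and that of Tnfrsf1a without Δ-C60 clone 2, where its log2 fold change was −0.91. In MT194, 1 of 59 was called against WT, or 1.69% beside 1.47% of all genes, and 2 of 59 against WT(N48), or 3.39% beside 3.24%, so that both shares were near those of all genes. They were Il11ra1, the IL-11 receptor, against WT (1.27, SE 0.29, adjusted p = 0.0422), and Junb (1.19, SE 0.22, adjusted p = 0.0137) and C4b (2.84, SE 0.73, adjusted p = 0.041) against WT(N48) in edgeR. The Il11ra1 call was lost with any of the 6 clones left out (adjusted p up to 0.137). Without WT clones 1 and 3 together, with 1 WT library left, its log2 fold change was 1.45, without a call. The C4b call was lost without MT194 clone 1 or 2 or WT(N48) clone 1 or 2 (up to 0.153). That of Junb was lost without MT194 clone 1 or WT(N48) clone 1 (up to 0.0838).

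Genes with the most similar pattern were listed by Pearson's r of log2 CPM, as a description over libraries that share replicates and constructs. Over the 20 populations, Il6 was most like Ier3 (0.979) and Hbegf (0.963), and Lif most like Ccrn4l (0.957), Sgk1 (0.957) and Mybbp1a (0.956). Saa3 was most like the acute-phase genes Cp (0.930) and Lbp (0.911) and like Man2b2 (0.901). For Lcn2 the nearest were Ctso (0.942), Gpc6 (0.931) and Cp (0.915), and for Il11, on 6 to 28 reads, Mtx1 (0.763), Lyrm9 (0.743) and Cyr61 (0.739).

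Over the 15 clones the nearest genes were others. Lcn2 was most like the chemokine genes Cxcl5 (0.954) and Cxcl1 (0.935) and like Glrx (0.947). Among the genes nearest to Saa3 were Slfn2 (0.909) and Sema4b (0.900), while Il6 was nearest to Spry3 (0.868), Gbp3 (0.868) and Nos2 (0.867), Lif to Rel (0.875), Ttc37 (0.849) and Paxbp1 (0.826), and Il11 to Drg1 (0.901), Sf3b3 (0.882) and Prmt7 (0.864).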

How the data were processed

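RNA-seq of 35 libraries was used. The authors prepared stranded mRNA libraries, aligned reads to mm10 with bowtie2, skipped alignments with a mapping quality under 30 and counted reads per gene with HTSeq, and the deposited values are these counts, not normalized. The strand setting and tool versions are not given in the sources used here. Reads on no gene, 11.7% to 21.3% of each population file and 9.14% to 12.0% of each clone file, stayed out of library sizes.

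The 20 populations and 15 clones were fitted separately with edgeR 4.0.16 in R 4.3.3: filterByExpr, TMM, 1 mean per group, robust quasi-likelihood tests, and Benjamini-Hochberg adjustment over the 13805 and 13223 genes tested. The SE is the absolute log2 fold change divided by the square root of F. The 95% intervals apply the normal distribution to this SE, so they are approximate and narrower than the test implies. For example, Stat3 in DMT had −0.71 to −0.01 with an unadjusted p of 0.0645 in edgeR's quasi-likelihood test. Genes were called at an adjusted p below 0.05 with a log2 fold change beyond 1 either way, or 0.5 against EV-Cre, and for interactions the adjusted p alone. The 9 members, the pathway lists and the named genes (members, Nelfb, pathway genes called in a comparison, and the 3 genes most similar to each of 5 members with a mean of at least 50 counts) were chosen with earlier results of these data known. Some of the similar genes are not reported here. Promoters are from RefSeq, GRCm38.p6, and positions and exon lengths from GENCODE on GRCm38. No set tests were run.

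Replicate numbers paired the populations: the study describes independent experiments, and deviations from group means correlated at over 0.1 in 90 of 90 same-number pairs (0.42 to 0.73). In the clones 3 of 30 pairs did, so clone numbers are names only. The study describes the clones as independent. Alternatives were DESeq2 1.42.0, its size factors, no filter, the compared groups alone, the replicate block, another fold threshold, no WT clones 1 and 3, and each library left out, where a lone library was assumed to vary like the other groups. Counts were simulated with 200 genes changed by 2 on the log2 scale. For the Cre effect in EV, edgeR recovered 83.5% over 13636 genes with 7 false calls. For Δ-C60 against WT(N48) clones it recovered 68% over 13078 genes with 5. DESeq2 recovered 89% with 19 false calls and 74% with 28, so it made more false calls in both. Shares of all genes called are given for edgeR fits only, so DESeq2 calls stand without one.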

Additional observations from a re-analysis of the deposited data

Results flagged for a closer look

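In total 2 genes of the pathway had a Cre effect in WT that differed from that in EV by a test of the difference itself, edgeR's quasi-likelihood test of the interaction with adjustment over 13805 genes. They were Il6, 1 of 9 members, and Myc, 1 of 66 other pathway genes, where 0.681% of all genes were called. With the replicate block, which pairs the populations, 2 of 9 members (Il6 and Osmr) and 15 of the 66 were called, Myc, Clcf1, Stat5a, Socs2 and Pim1 among them, where 17.3% of all genes were. For Il6 the difference was −2.14 on the log2 scale (SE 0.42, adjusted p = 0.0426). For Myc it was −1.27 (SE 0.21, adjusted p = 0.0195). Myc was at 204 and 228 CPM in EV-Cre, 81.0 and 88.4 CPM in WT-Cre, 57.1 and 72.1 CPM in EV-GFP and 56.6 and 65.5 CPM in WT-GFP. The Myc call was lost with 6 of the 8 compared libraries left out (adjusted p up to 0.138) and that of Il6 with each of the 8 (0.0551 to 0.187). In the compared groups alone the adjusted p was 0.131 for Myc and 0.0796 for Il6. No group was large enough for a check of single outlying samples.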

How the results depend on the processing

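None of the 12 called pairs of member and comparison changed sign under the alternatives run. Over all 166 pairs, 66 took the other sign under at least 1 alternative, all without a call. For example, Il6 in Δ-C60 against WT(N48) clones was at −0.07, at 0.39 with the replicate block and up to 2.72 without single clones. Lcn2 in MT194 against WT clones was at 0.76, and at −0.26 with that block. The Cre effect on the members gave 6 calls of 45 pairs of gene and construct, and 4 to 7 under every alternative. Against EV-Cre, 2 of 36 pairs were called, with 5 by DESeq2, 7 with the replicate block and 1 to 3 when a library was left out. The difference of Cre effects from EV was called for 1 of 36, with 0 in the compared groups alone, 3 with the replicate block and 0 to 1 when a library was left out. In the clones 3 of 49 pairs were called, with 5 by DESeq2, 1 without the filter, 0 in the compared groups alone, 0 without WT clones 1 and 3, 2 with the replicate block and 0 to 6 when a clone was left out. Fitted in the compared groups alone, the calls of Stat5a, Nfkb2, Relb, Vegfa and Bcl6 in WT-Cre against EV-Cre (adjusted p 0.0558 to 0.125), of Lifr, Tnfrsf1a, Pim1, C4b and Steap4 in Δ-C60 against WT clones (0.0557 to 0.101) and of Socs3, Junb and C4b in MT194 against WT(N48) clones (0.0618 to 0.103) were also lost. Without the filter on low counts, the calls of Serpina3g in DMT (0.0604), Nfkb2 (0.0601) and Relb (0.0504) in WT-Cre against EV-Cre, Stat3 (0.0577) and Steap4 (0.0785) in Δ-C60 against WT, Il11ra1 in MT194 against WT (0.0539), and Socs3 (0.0544) and C4b (0.0548) in MT194 against WT(N48) were lost, and with DESeq2 size factors that of Serpina3g in DMT (0.0504). The fit without WT clones 1 and 3 also ended the calls of Socs3 (0.0817) and C4b (0.0568) in MT194 against WT(N48). The causes were not tested. Blocking by replicate raised the genes called in EV from 900 to 1344, in WT from 3 to 120, in MT194 from 343 to 744, in MT486 from 201 to 586 and in DMT from 733 to 1215, and changed no call of a member other than those given above. In the clones, where numbers do not pair samples (correlations −0.285 to 0.408), the block removed the calls of Stat3 in Δ-C60 against WT (adjusted p = 0.0732), of Il11ra1 in MT194 against WT (0.0748) and of Socs3 (0.0726) and C4b (0.0878) in MT194 against WT(N48) and added Lcn2 in Δ-C60 against WT (0.0416).

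As groups held 2 population or 3 clone libraries, a missing call does not show that levels were equal. For the same reason, values without overlap do not by themselves show a change, and they are given as a description. Il11 in the populations, and Saa3 and Lcn2 in several clones, rest on few reads, and counting error alone is then large.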
